A study of Mus musculus with 6 samples.

Results

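The genes described here are the mitochondrial carriers of solute carrier family 25, chosen by name: every row of the deposited count table whose symbol begins with Slc25a and a number. There were 43 such genes among 16519 in the table. RNA was sequenced in bulk from mouse bone marrow derived macrophages (BMDMs), macrophages that grow out of marrow cells in a dish. In 3 libraries (KO) the cells came from Trmt61a f/f LysmCre mice, in which both Trmt61a alleles are floxed and a Cre recombinase expressed from the lysozyme M locus deletes them in myeloid cells. In 3 libraries (WT) the cells came from Trmt61a f/f mice, so floxed Trmt61a was shared by both groups and Cre was present only in KO; the loss of Trmt61a and the presence of Cre cannot be told apart. The labels give no age, sex or stimulus, and whether same-genotype libraries are separate mice or separate dishes is not stated, so the spread behind each p-value may be technical rather than between animals.

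TRMT61A is the catalytic partner of a methyltransferase that places N1-methyladenosine in tRNA. The SLC25 proteins are small carriers, nearly all in the inner mitochondrial membrane, that exchange nucleotides, phosphate, carboxylates, amino acids, acylcarnitines and cofactors between the cytosol and the matrix. Their proteins are made in the cytosol from nuclear genes and are inserted into the membrane by the TIM22 translocase. In macrophages these carriers connect oxidative phosphorylation with the cytosolic use of citrate, malate and aspartate during activation. Of the 43 genes, 42 carried the gene ontology term mitochondrion in the deposited table and 38 the term mitochondrial inner membrane; Slc25a53 carried no term.

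The libraries held between 37021855 and 41033179 gene counts. Trmt61a was at 0.608 ± 0.128 CPM (read counts scaled to the library size) in KO, against 4.64 ± 0.648 CPM in WT (SD, n = 3), and each library labelled KO lay below each WT library. All 8 macrophage markers looked at (Adgre1, Csf1r, Cd68, Mertk, Fcgr1, Itgam, Cd14, Spi1) were present, with a summed level between 10553 and 11919 CPM in KO and between 10791 and 11526 CPM in WT. The 8 erythroid markers in the table summed to between 4.06 and 6.83 CPM in KO and between 4.80 and 6.33 CPM in WT, most of it Epor (3.63 to 6.11 CPM), with Hbb-bs, a beta-globin gene, between 0.0251 and 0.881 CPM and Alas2 at 5 counts or fewer in each library. The 10 neutrophil markers summed to between 1624 and 2598 CPM in KO and between 1646 and 2985 CPM in WT. The 8 proliferation markers summed to between 514 and 798 CPM in KO and between 474 and 768 CPM in WT, with the lowest values in KO 1 and WT 2. All 8 had a log2 fold change of KO minus WT above 0 (median 0.09), but the genotypes overlapped for each and 0 passed. In bulk RNA, fewer cells of a type and less RNA per cell cannot be told apart.

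Of the 43 carriers, 39 had enough counts to be tested and 4 did not (Slc25a2, Slc25a18, Slc25a31 and Slc25a34). Levels of different genes are compared here as CPM per kb of the principal transcript, averaged over the 6 libraries. On that scale the tested carriers ran from 181 (Slc25a3) to 0.291 (Slc25a47), a 623-fold range. Slc25a3, which carries inorganic phosphate into the matrix for ATP synthesis, was the most abundant carrier on this scale, and 97.4% of the 12368 tested genes with a transcript length lay at or below it. Slc25a5 and Slc25a4, the adenine nucleotide translocases that exchange ADP for ATP, stood at 113 and 52.3 CPM per kb. Between them lay Slc25a39, an importer of glutathione, at 60.2, and Slc25a11, the exchanger of 2-oxoglutarate and malate, at 54.2. The citrate carrier Slc25a1 (39.0), the dicarboxylate carrier Slc25a10 (35.5) and Slc25a45 (35.2), grouped here with the amino acid carriers, completed the 8 most abundant. With the length of all annotated exons in place of the principal transcript, 7 of these 8 stayed among the 8 most abundant, Slc25a51 replacing Slc25a10, but Slc25a5 (85.0) then stood above Slc25a3 (52.7).

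**Figure D1:**
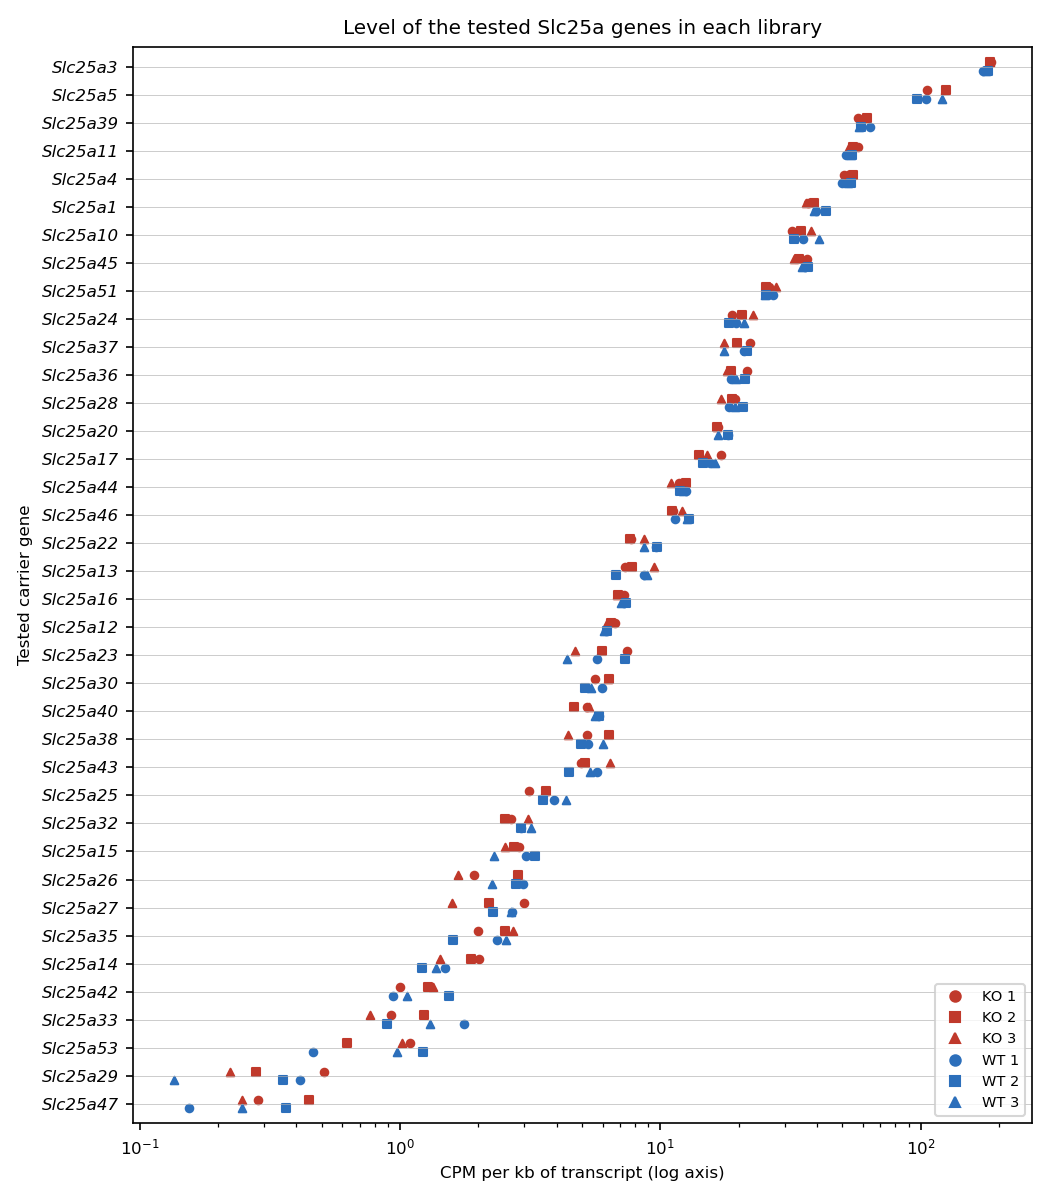
Level of 38 tested carriers in CPM per kb of principal transcript (log axis), with 1 point per library, red for KO and blue for WT, and a marker shape per replicate number. Levels span 623-fold between genes, whereas the 6 libraries lie between 174 and 187 for Slc25a3 and between 96.5 and 125 for Slc25a5.

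The summed level of the 43 carriers was nearly the same in all libraries. It was 1784, 1792 and 1780.4 CPM in KO 1, KO 2 and KO 3, and 1772, 1784 and 1779 CPM in WT 1, WT 2 and WT 3. Both genotypes overlapped, with means of 1786 ± 6.05 in KO against 1778 ± 6.19 CPM in WT (SD, n = 3). Slc25a3 alone made up 16.4% of the sum, and Slc25a3, Slc25a5, Slc25a51, Slc25a36 and Slc25a39 together 42.2%.

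Among carriers with a row in the deposited counts, those too low to be tested had between 0 and 23 counts in a library. Slc25a21, Slc25a41, Slc25a48 and Slc25a54 had no row, so their levels are not known here. Slc25a31, the adenine nucleotide translocase of testis, had 5, 2 and 3 counts in KO and 0, 10 and 2 in WT. Slc25a18, a glutamate carrier, had 9, 1 and 1 counts in KO and 0, 7 and 2 in WT. Both genotypes overlapped for these carriers. Slc25a2, an ornithine carrier, had 3, 4 and 7 counts in KO and 22, 6 and 1 in WT. Slc25a34, a carrier of uncertain substrate, had 1, 0 and 0 counts in KO and 23, 1 and 16 in WT. WT 2 was level with KO 1 for Slc25a34, and nearly all of its WT counts came from WT 1 and WT 3. Fitted with no low-count filter, Slc25a34 had an unadjusted p of 0.00288 in edgeR's quasi-likelihood test and was not called after adjustment. The limit that a count of 0 allows, 3 counts, is worth 0.0730 to 0.0813 CPM here, and covers counting error only.

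A sequence feature was read from RefSeq promoters (GRCm38.p6), which were given for 33 of the 43 carriers. The 250 bases before each start site were searched on both strands for the core of the site of NRF1, a factor known for regulating nuclear genes of mitochondrial proteins, as GCGC, any base and TGCGC. It was found for 2 of the 33 carriers (6.06%) and for 7.72% of 12955 genes of the table with a promoter. These carriers were Slc25a3 and Slc25a31, the highest and the lowest of the 43 per kb of principal transcript (Slc25a3 is second to Slc25a5 with all annotated exons), and their windows are shown because both hold the same 10 letters. The capitals mark the match, and the bases shown, 5′ to 3′ on the strand of the gene, overlap no annotated exon of that gene.
Slc25a3, chr10:91124060-91124217, minus strand: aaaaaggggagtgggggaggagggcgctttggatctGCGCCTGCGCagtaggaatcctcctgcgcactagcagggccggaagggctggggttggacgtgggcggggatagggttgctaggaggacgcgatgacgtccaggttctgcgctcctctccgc
Slc25a31, chr3:40708621-40708854, plus strand: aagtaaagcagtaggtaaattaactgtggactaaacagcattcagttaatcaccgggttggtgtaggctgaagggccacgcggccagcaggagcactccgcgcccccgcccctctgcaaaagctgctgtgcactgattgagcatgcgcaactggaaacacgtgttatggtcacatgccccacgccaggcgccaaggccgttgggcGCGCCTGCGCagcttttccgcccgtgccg
Other motifs were searched in the same windows as a description only. The core of the GABP site, CCGGAAGT, was found for 1 carrier, Slc25a20 (3.03%, against 5.49% of genes of the table), the TATA box TATAAA for 1, Slc25a18 (3.03% against 9.39%), and the CCAAT box CCAAT for 17 (51.5% against 40.2%).

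The design asks which carriers differ between KO and WT macrophages. None of the 39 tested carriers passed (edgeR quasi-likelihood test, Benjamini-Hochberg adjusted over 12605 genes; smallest adjusted p of a carrier 0.99995), where 4 genes, 0.0317% of those tested, passed. DESeq2 and limma voom called 0 carriers as well. At an unadjusted p under 0.05 there was 1 of the 39 tested carriers in edgeR, Slc25a22, lower in KO. The shares over all tested genes were 3.1% in either direction and 1.64% lower in KO. Over the same 39 carriers, DESeq2 and limma voom each gave this single gene. DESeq2 was also fitted to the 4 carriers removed by the count filter, which are left out of its count. Of the carriers, 19 had a log2 fold change above 0 and 20 below, with a median of -0.00354, beside 6308 of 12605 above 0 and a median of 8.37e-05 over all tested genes. The median deviation of the carriers from their own mean over 6 libraries was below 0 in each KO library (-0.0344, -0.00269 and -0.0222 on the log2 scale). It was above 0 in each WT library (0.0294, 0.0170 and 0.00213). These medians were not computed over all tested genes, so they cannot be set against a typical gene. The mean summed level of the carriers went the other way, at 1786 CPM in KO against 1778 CPM in WT, with overlap. The libraries of the genotypes did not overlap for 4 carriers, higher in KO for Slc25a3 and Slc25a12 and lower for Slc25a20 and Slc25a40. That is 10.3% of the tested carriers, near the 8.65% of all tested genes (4.05% higher and 4.59% lower in KO). The median of the carriers moved to -0.08 without KO 1 and to -0.04 without KO 1 and WT 2 together, the latter an alternative chosen after the data were seen.

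The data bounded the size of any difference more tightly for abundant carriers. The 95% interval of the fold change lay within 1.5-fold in either direction for 30 of the 39 carriers (76.9%) and within 2-fold for 36 (92.3%). The same shares over all tested genes were 72.4% and 84.3%. Among the 27 carriers averaging 10 CPM or more, 26 had an interval within 1.5-fold, the other being Slc25a23 at 1.52-fold. The 3 carriers not bounded within 2-fold were Slc25a33, Slc25a29 and Slc25a47, with means of 2.17, 0.631 and 0.460 CPM. For Slc25a33 the interval passed 2-fold only in the direction of lower levels in KO.

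**Figure D2:**
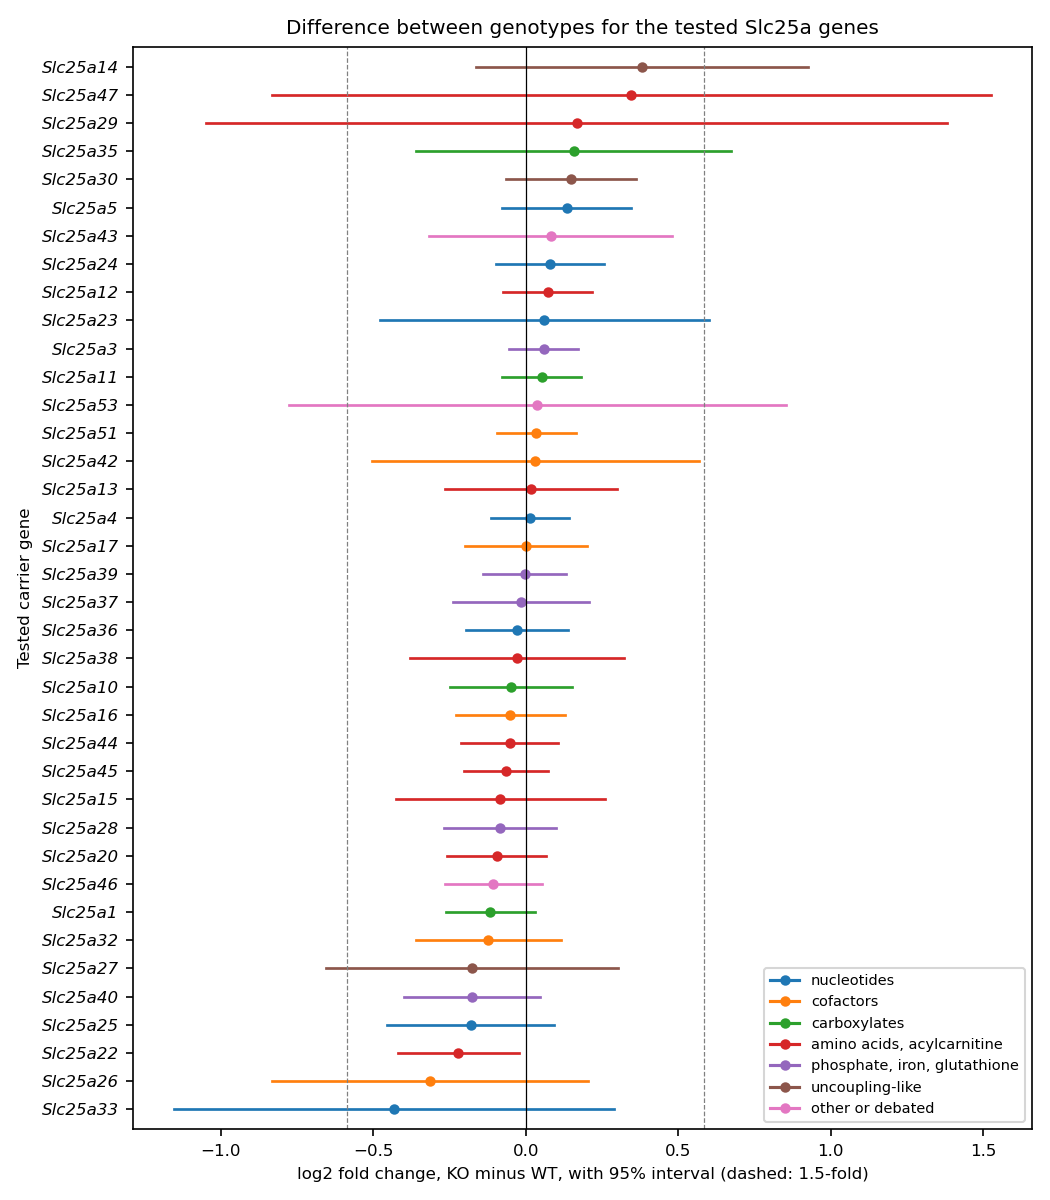
Log2 fold change of KO minus WT for 38 tested carriers, with its 95% interval and a colour for each substrate group; dashed lines mark 1.5-fold. The interval of Slc25a22 is the only one that leaves out 0, and 29 of the 38 lie within the dashed lines.

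The adenine nucleotide translocases and the other nucleotide carriers showed no called difference, with 4 of 7 tested members above 0 and a median log2 fold change of 0.01. Slc25a5 (chromosome X, 36795597 to 36798808, mm10) was at 131, 156 and 153 CPM in KO and at 130.5, 119.7 and 150.2 CPM in WT. It was lowest in WT 2 and close to equal in KO 1 and WT 1, so the genotypes overlapped, with a log2 fold change of 0.13 (standard error 0.09). It was 0.06 without WT 2, 0.21 without KO 1 and 0.23 without WT 3. Slc25a4 (chromosome 8, 46207168 to 46211062) was at 98.1, 106 and 99.9 CPM in KO and at 96.2, 104 and 101 CPM in WT. Its log2 fold change was 0.01, with an interval from -0.11 to 0.14, and its libraries were interleaved. Per kb, Slc25a5 exceeded Slc25a4 in every library, by 2.25 ± 0.160-fold in KO and 2.07 ± 0.260-fold in WT (SD, n = 3). Of the 50-base stretches in the annotated Slc25a5 transcripts, 33.8% also occurred in transcripts of 9 other genes, so its counts are uncertain where reads could be assigned to any of these; for Slc25a4 the share was 0.0%.

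The calcium-regulated carriers of ATP-Mg and phosphate are part of the same group. Slc25a24 was at 71.3 ± 6.76 in KO against 67.4 ± 4.52 CPM in WT (SD, n = 3). Slc25a25 was at 10.3, 12.04 and 11.9 CPM in KO and at 12.8, 11.7 and 14.3 CPM in WT, with a log2 fold change of -0.18 (standard error 0.12). Only WT 3 and WT 1 lay above all KO libraries. Slc25a36 and Slc25a33 carry pyrimidine nucleotides. Slc25a36 was at 102 ± 9.59 in KO against 104 ± 6.49 CPM in WT (SD, n = 3). Slc25a33 was at 1.75, 2.34 and 1.44 CPM in KO and at 3.33, 1.68 and 2.46 CPM in WT. Its log2 fold change was -0.43, but its standard error was 0.33 and WT 2 lay within the range of KO. The value depended on single libraries, from -0.17 without WT 1 to -0.65 without WT 2. Exons of Gm13068 on the opposite strand overlap 14.9% of its exonic bases. Opposite-strand exons overlap 11 of the 43 carriers, among them Slc25a11 (8.9% of exonic bases) and Slc25a10 (6.6%).

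Phosphate, iron and glutathione carriers had 1 of 5 members above 0; their median was -0.01. Slc25a3 (chromosome 10, 91116574 to 91124046) was at 301, 297 and 297 CPM in KO and at 280.0, 293 and 286 CPM in WT. Every KO library lay above every WT library, and the log2 fold change was 0.06, with an interval from -0.05 to 0.17. Slc25a37 and Slc25a28, known as mitoferrins, bring iron into mitochondria for haem and iron-sulfur clusters. Slc25a37 was at 82.6 ± 9.48 in KO against 83.4 ± 8.90 CPM in WT, and Slc25a28 at 28.3 ± 1.75 and 30.0 ± 1.86 CPM (SD, n = 3). Slc25a39 and Slc25a40 are related proteins linked to glutathione import. Slc25a39 was at 96.9, 105 and 102 CPM in KO and at 108, 99.3 and 97.3 CPM in WT, and the genotypes overlapped. Slc25a40 was at 14.6, 12.99 and 14.9 CPM in KO and at 16.2, 16.1 and 15.7 CPM in WT. Its KO libraries all lay below its WT libraries, with a log2 fold change of -0.18 (standard error 0.10) that did not pass.

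Among the carriers of di- and tricarboxylates, 2 of 4 tested genes lay above 0 (median 0.00167). Slc25a1 (chromosome 16, 17925211 to 17928219) exports the citrate from which cytosolic acetyl-CoA is made. It was at 61.7, 64.9 and 60.4 CPM in KO and at 66.1, 71.9 and 64.7 CPM in WT. KO 2 reached the level of WT 3, so the genotypes just overlapped, with a log2 fold change of -0.12 (standard error 0.07). Slc25a11 was at 98.5, 94.1 and 90.8 CPM in KO and at 88.1, 93.0 and 92.3 CPM in WT. Slc25a10 was at 65.0, 70.0 and 76.8 CPM in KO and at 71.1, 65.7 and 82.2 CPM in WT. The genotypes were interleaved for both of these carriers, with log2 fold changes of 0.05 and -0.05. Slc25a35, an orphan carrier, was at 4.42 ± 0.681 in KO against 3.97 ± 0.930 CPM in WT (SD, n = 3); 31.3% of its exonic bases overlap exons of another gene, Rangrf, on the opposite strand, and whether reads were counted by strand is not stated.

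Amino acid and acylcarnitine carriers had 4 of 10 tested members above 0; their median was -0.04. Slc25a22 (chromosome 7, 141429749 to 141437874), which carries glutamate into mitochondria together with a proton, had the smallest p of the 39 tested carriers. It was at 21.7, 21.4 and 24.4 CPM in KO and at 27.2, 27.3 and 24.3 CPM in WT. KO 3 and WT 3 were level, so the genotypes overlapped by that pair, while the other libraries were separate. The log2 fold change was -0.22, standard error 0.09 (edgeR unadjusted p = 0.0322, adjusted p = 0.99995), and it did not pass. Slc25a12 and Slc25a13 exchange aspartate for glutamate in the malate-aspartate shuttle. Slc25a12 was at 42.5, 41.1 and 39.7 CPM in KO and at 39.4, 39.5 and 38.4 CPM in WT, without overlap, and its log2 fold change was 0.07 with an interval from -0.07 to 0.22. Slc25a13 was at 25.6 ± 3.54 in KO against 25.3 ± 3.69 CPM in WT (SD, n = 3).

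Slc25a20, the carnitine-acylcarnitine translocase that admits long-chain fatty acids for oxidation, was at 29.6, 29.5 and 29.5 CPM in KO and at 32.4, 32.5 and 29.8 CPM in WT. The KO libraries lay below the WT libraries, but WT 3 was nearly level with KO 1, and the log2 fold change was -0.10 (standard error 0.07). Slc25a45 was at 90.6, 84.4 and 80.9 CPM in KO and at 89.3, 91.5 and 86.8 CPM in WT, with overlap. The branched-chain amino acid carrier Slc25a44, the glycine carrier Slc25a38 and the ornithine carrier Slc25a15 had log2 fold changes of -0.05, -0.03 and -0.08. Slc25a29, a carrier of basic amino acids, and Slc25a47, known as a carrier of liver, had 0.17 and 0.35, both below 1 CPM in the mean and with standard errors of 0.55 and 0.54. Slc25a29 and Slc25a47 are neighbours on chromosome 12, 13957 bases apart, and both were low.

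Cofactor carriers had 4 of 7 members above 0; their median was 0.00104. Slc25a51, which imports NAD, was at 116, 113 and 124 CPM in KO and at 120.4, 113 and 112 CPM in WT, and the genotypes were interleaved. Slc25a26, which imports the methyl donor S-adenosylmethionine, was at 4.12 ± 1.19 in KO against 5.13 ± 0.706 CPM in WT (SD, n = 3). Its log2 fold change was -0.31 with an interval from -0.83 to 0.20, wider than that of Slc25a51, which ran from -0.10 to 0.17. The within-genotype standard deviation of log2 CPM was 0.32 for Slc25a26 and 0.06 for Slc25a51. Slc25a32, linked to folate and FAD, the coenzyme A carrier Slc25a42, Slc25a16 and the peroxisomal carrier Slc25a17 had log2 fold changes between -0.12 (Slc25a32) and 0.03 (Slc25a42).

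Carriers that resemble uncoupling proteins had 2 of 3 members above 0, with a median of 0.15. Slc25a30 was at 20.1, 22.8 and 22.7 CPM in KO and at 21.4, 18.4 and 19.4 CPM in WT, with WT 1 above KO 1. Its log2 fold change was 0.15 (standard error 0.10). Slc25a14 was at 3.55, 3.30 and 2.50 CPM in KO and at 2.63, 2.13 and 2.41 CPM in WT. KO 3 lay below WT 1, and the log2 fold change was 0.38 (standard error 0.25). Slc25a27 had -0.18. The remaining carriers, of debated or other roles (Slc25a43, Slc25a46 and Slc25a53), had 2 of 3 above 0. Slc25a46, an outer membrane protein that acts in mitochondrial dynamics, was at 49.0, 48.5 and 52.8 CPM in KO and at 49.95, 56.3 and 55.5 CPM in WT. KO 3 lay above WT 1, and the log2 fold change was -0.11 (standard error 0.07). Slc25a43 (chromosome X) lies 18290 bases from Slc25a5, yet stood at 5.34 CPM per kb against 113 for its neighbour.

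**Figure D3:**
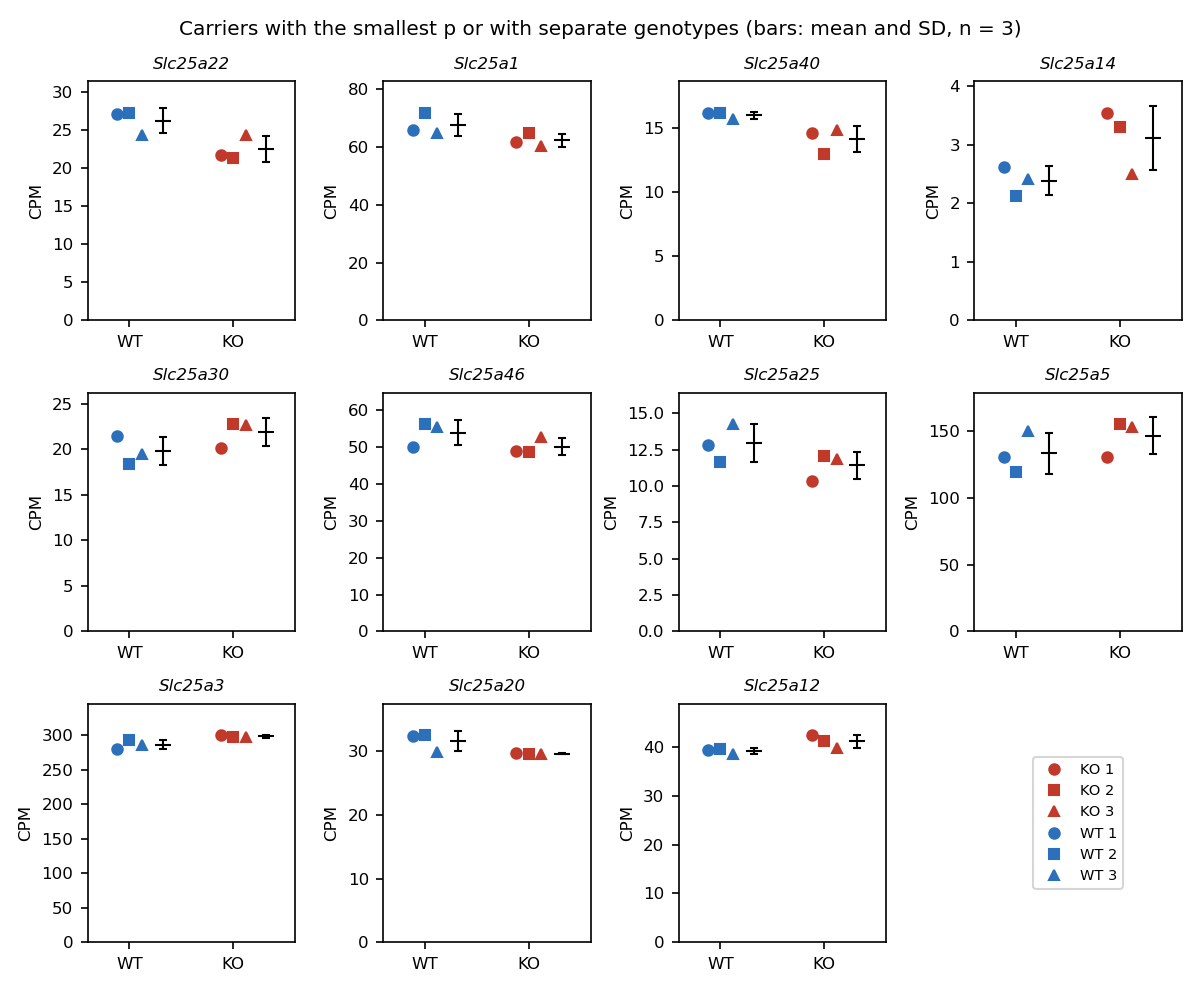
CPM in each library for the 8 tested carriers with the smallest p and the 3 further carriers whose genotypes did not overlap. Slc25a40 is in both sets. Axes start at 0, and the mean and SD of 3 libraries stand beside the points. Among the genes shown, the KO mean runs from 85.8% of the WT mean (Slc25a22) to 130% (Slc25a14). For Slc25a3 the means are 298 (KO) and 286 CPM (WT).

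The median absolute log2 fold change between genotypes was 0.08 over the tested carriers and 0.07 over all tested genes. For carriers as for all tested genes, the median spread within a genotype was larger. The within-genotype standard deviation of log2 CPM had a median of 0.12 over the tested carriers and 0.13 over all tested genes. It was largest, among carriers of at least 1 CPM, for Slc25a53 (0.60), Slc25a33 (0.43) and Slc25a23 (0.35). Slc25a53, an orphan carrier, was at 2.81, 1.61 and 2.62 CPM in KO and at 1.19, 3.14 and 2.51 CPM in WT. Its lowest and its highest library were both WT. Slc25a23, a calcium-regulated ATP-Mg carrier, was at 25.1, 20.02 and 15.8 CPM in KO and at 19.2, 24.5 and 14.7 CPM in WT. It was highest in KO 1 and WT 2, and its log2 fold change between genotypes was 0.06.

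KO 1 and WT 2 were also the libraries with the lowest summed proliferation markers in their genotype, and KO 3 and WT 3 those with the highest. A comparison of this order was added after the values were seen. In both genotypes 4 carriers had their libraries in the order of the markers (Slc25a10, Slc25a13, Slc25a24 and Slc25a35), 10.3% of those tested beside 9.34% of all tested genes. Another 6 carriers had the opposite order in both genotypes (Slc25a12, Slc25a15, Slc25a16, Slc25a23, Slc25a37 and Slc25a45), 15.4% beside 8.33% of all tested genes. The neutrophil markers were likewise lowest in KO 1 and WT 2 and highest in KO 3 and WT 3, at 1624 and 1646 against 2598 and 2985 CPM. The mast cell, basophil and eosinophil markers summed to 28.4, 57.4 and 59.3 CPM in KO and to 36.5, 30.7 and 69.5 CPM in WT, again lowest in KO 1 and WT 2. The stromal markers were also lowest in KO 1 (138 CPM) and WT 2 (136 CPM), and highest in KO 2 (307 CPM) and WT 3 (211 CPM). The macrophage markers went the other way, highest in KO 1 (11919 CPM) and WT 2 (11526 CPM). The part of any of these marker lists in the carriers' values was not tested.

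**Figure D4:**
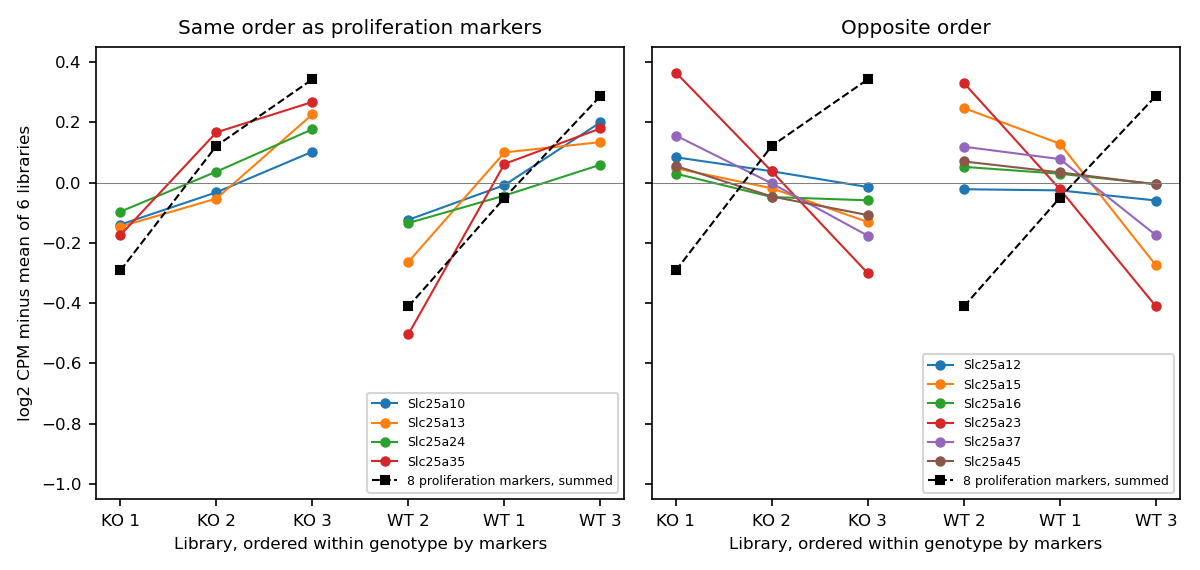
Log2 CPM of each carrier minus its mean over 6 libraries, for carriers whose libraries fell in the same order as the summed proliferation markers within both genotypes (left, 4 genes) and in the opposite order (right, 6 genes); the dashed line is the log2 sum of the 8 markers. Slc25a23 has the widest range on the right, from 25.1 CPM in KO 1 to 14.7 CPM in WT 3, while the markers sum to 514 and 768 CPM in these libraries.

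Family members known by other names fell outside the rule and were looked at beside the carriers. Ucp2, the uncoupling protein of immune cells, was at 715, 817 and 818 CPM in KO and at 761, 709 and 881 CPM in WT, so that its count exceeded that of every Slc25a gene in CPM. Its log2 fold change was -0.00115, with a 95% interval from -0.19 to 0.19. Mtch1 and Mtch2, relatives of the carriers in the outer membrane, had -0.00439 and 0.02. Ucp1, the uncoupling protein of brown fat, and Ucp3 were not tested, with at most 2 and 19 counts in a library.

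Genes around the carriers in the same pathways also had no member that passed. Of 13 genes for the import of carriers (TIM22 and TOM components), 7 were above 0 with a median of 0.02. Tomm40, the channel of the outer membrane translocase, was at 27.1, 28.8 and 28.6 CPM in KO and at 24.2, 23.0 and 24.8 CPM in WT. It was higher in each KO library, with a log2 fold change of 0.23, standard error 0.08 (edgeR unadjusted p = 0.0129, adjusted p = 0.99995). Of 19 other inner membrane transport genes (pyruvate carrier, sideroflexins, calcium uniporter and ABC transporters), 13 were above 0, with a median of 0.04 and no unadjusted p under 0.05. The calcium uniporter gene Mcu was at 18.6 ± 1.09 in KO against 16.4 ± 1.20 CPM in WT (SD, n = 3), without overlap, with a log2 fold change of 0.17. Mcub was at 46.6 ± 4.61 in KO against 41.9 ± 2.85 CPM in WT (SD, n = 3), with overlap, with a log2 fold change of 0.15. The voltage-dependent anion channels Vdac1 and Vdac2 both had 0.06, with overlap.

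Enzymes that work with the carriers were measured as well. Of 11 shuttle and citrate enzymes, 10 were above 0, with a median of 0.05, and the only one below 0 was Gpd1. Gpd1, the cytosolic glycerol-3-phosphate dehydrogenase of the glycerol phosphate shuttle, was at 2.54, 5.69 and 4.31 CPM in KO and at 7.75, 7.91 and 12.6 CPM in WT. All KO libraries lay below all WT libraries, with a log2 fold change of -1.17 (standard error 0.31) that did not pass (edgeR unadjusted p = 0.00429, adjusted p = 0.99995). Mdh2, the mitochondrial malate dehydrogenase, had 0.10, with overlap. Of 8 genes of the carnitine shuttle and long-chain oxidation, 6 were above 0, with a median of 0.02; Acadvl and Hadhb, enzymes of long-chain oxidation, had 0.11 and 0.12, with overlap. Of 15 haem and iron-sulfur genes, 9 were above 0. Among them Alad, an enzyme of haem synthesis, was at 9.06 ± 1.05 in KO against 7.10 ± 0.773 CPM in WT (SD, n = 3). The genotypes did not overlap for Alad, but its log2 fold change of 0.35 did not pass (edgeR unadjusted p = 0.0429, adjusted p = 0.99995). It was the only 1 of these 15 genes with an unadjusted p under 0.05, beside 3.1% of all tested genes. Of 9 tested regulators of mitochondrial biogenesis, 5 were above 0, with a median of 0.00444; Ppargc1b, a coactivator of mitochondrial genes, had 0.24 without overlap of the genotypes, and Tfb1m had -0.32 with overlap.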

How the data were processed

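The authors deposited raw read counts per gene, whole numbers, for 6 libraries. Per the labels' protocols, RNA was taken up in TRIzol and a VAHTS Universal V6 kit made the libraries; per the submitters' processing notes, fastp, HISAT2, HTSeq and build mm10 were used. Tool versions, the annotation and the strand setting were not given in the sources used. Groups came from the sample titles. Replicates differed beyond sampling noise (chi-square between 11.8 and 35.8 per degree of freedom), so no library was merged.

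edgeR 4.0.16 (R 4.3.3) tested 12605 genes passing filterByExpr (minimum count 10), using TMM factors, a robust quasi-likelihood F test (legacy option) and Benjamini-Hochberg adjustment at 0.05. Intervals are at 95%. CPM values use TMM-scaled library sizes. Alternatives used DESeq2 1.42.0 and limma 3.58.1 (voom), other scalings and filters, a replicate block and leaving out libraries. On simulated counts with 200 genes changed, the edgeR steps (12469 genes) made 162 calls, of which 12 were false. They found 64.5% of planted 1.5-fold changes, 72.5% of 2-fold and 92.3% of 4-fold changes. These rates depend on the number of genes changed. In the real comparison 4 genes passed, which makes the adjustment stricter, so the rates are not its power.

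Transcript lengths come from GENCODE M21 and gene coordinates from RefSeq (GRCm38.p6, the assembly of mm10), matched by Entrez Gene ID for all 43 carriers. Tested carriers described in every library were the 8 highest per kb, the 8 with the smallest p and those without overlap. The highest of each substrate group and the 3 of largest within-genotype spread were described likewise. For other lists at most the 2 genes with the smallest p were taken by rule. Ucp1, Ucp2 and Ucp3 were chosen after their values were seen. Members and lists were chosen with earlier results of these data known. Values of 1 tested carrier and 1 marker gene are not reported here; both are included in the counts and medians.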

Additional observations from a re-analysis of the deposited data

How the results depend on the processing

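Over 14 alternatives to the edgeR fit, 0 carriers were called in each, and the smallest adjusted p of the 20 carriers described in every library was 0.910. Of 280 recomputed log2 fold changes of these carriers, 267 kept their sign. All 13 that turned came from leaving out libraries: leaving out 1 library gave ranges from -0.0318 to 0.0428 for Slc25a39, from -0.12 to 0.0465 for Slc25a10, from -0.0165 to 0.0353 for Slc25a4, from -0.00112 to 0.0692 for Slc25a51, from -0.27 to 0.34 for Slc25a53 and from -0.12 to 0.26 for Slc25a23. Leaving out KO 1 and WT 2 together, added after the data were seen, gave 0.0113 for Slc25a39. The median log2 fold change of the carriers ran from -0.0771 to -0.00561 when 1 library was left out and was -0.0441 without KO 1 and WT 2; the cause was not tested. Between 17 and 18 carriers were then above 0. The number of genes called over all genes was 17 with DESeq2 and 8 with the replicate block, against 4, and between 3 and 5 when 1 library was left out. Same-numbered libraries share only a number: their deviations from the genotype means correlated at 0.03, -0.13 and 0.25, and KO 1 correlated best with WT 2, so the replicate block is not a paired analysis. The 2 tested carriers below 1 CPM, Slc25a29 and Slc25a47, had the widest intervals; the part of depth in this was not tested.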
